A study of Mus musculus with 6 samples.

Results

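The miR-297, miR-466, miR-467 and miR-669 families of the mouse are a large group of related microRNAs (miRNAs) whose hairpins are packed into an intron of Sfmbt2. They were measured in prefrontal cortex by small RNA sequencing. Members were all entries of the table whose mouse miRNA name belonged to one of these families, 47 of 1115 entries. Entries with the same sequence were added up, which left 26 of the 1013 sequences listed. A pair of miR-466f-3p sequences carried the same reads in every library and counted once, so 25 observations remained. By family there were 1 of miR-297, 9 of miR-466, 5 of miR-467 and 10 of miR-669.

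The tissue came from male C57BL/6 mice, an inbred laboratory strain, at 30 weeks of age. Exposed animals were dosed daily by oral gavage with nano-polystyrene (PS-NP, nanometre-sized plastic beads) at 50 mg/kg for 6 months. Controls were given water (0 mg/kg). Each group had 3 libraries, the labels name no genetic change in either group, and nothing in the labels ties a library to a separate animal. The p-values therefore measure the spread between these libraries only, which may in part be technical.

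A miRNA is cut from the arms of a folded hairpin transcript, and the strand from the 5′ or 3′ side (5p or 3p) is loaded into a silencing complex. It recognises messenger RNAs mainly through its seed, bases 2 to 8. Sfmbt2 encodes a Polycomb-group protein and is an imprinted gene, expressed from the paternal copy in extraembryonic tissues of the mouse. Its intron carries a cluster of miRNAs that expanded in rodents and is best known from placenta and embryonic stem cells. Many copies are nearly identical, and their 5p strands are rich in GU runs while their 3p strands are rich in AC runs.

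The sequences that carried most reads of the families are shown first, as deposited (T stands for U), with the seed in capitals.
miR-669c-5p: aTAGTTGTgtgtggatgtgtgt
miR-467b-5p: tAAGTGCCtgcatgtatatgc
miR-467d-5p: tAAGTGCGcgcatgtatatgc
miR-669a-5p: aGTTGTGTgtgcatgttcatgtct
miR-669a-3p: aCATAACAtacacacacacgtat
miR-466e-3p: aTACATACacgcacacataaga
miR-467d-3p: aTATACATacacacacctacac
miR-297a-3p: aTATACATacacacatacccat
miR-466f-3p, Mir466f-3 form: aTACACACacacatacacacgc
miR-466f-3p, Mir466f-2 form: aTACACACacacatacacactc
The 26 sequences held 21 different seeds. Only 4 seeds occurred on more than 1 sequence, 9 sequences in all. TACACAC was shared by both forms of miR-466f-3p and by miR-466i-3p. TATACAT joined miR-297a-3p with miR-467d-3p across families, AAGTGCG joined miR-467c-5p with miR-467d-5p, and GTTGTGT joined miR-669a-5p with miR-669l-5p. Of the 21 seeds, 2 also occurred on a listed sequence outside the members, TAAGTGT of miR-467e-5p on miR-668-5p and GTTGTGT on a predicted arm of miR-669f.

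The forms of miR-466f-3p differ by G21T, counted from 1 at the 5′ end, with the Mir466f-3 form first. Their reads were equal in every library, and the sum of the pair, 72 to 196 reads, was a whole number in 6 of 6 libraries. The reads of the pair had thus been divided equally between them. All 21 bases of miR-466i-3p are also the first 21 bases of the Mir466f-2 form, so these entries can share reads as well.

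Matched to GENCODE M21 hairpins (GRCm38), the label of an Sfmbt2 intron held for 23 of the 26 sequences. The 23 include miR-466i-3p, which matched Mir466f-2 in the intron but also Mir466i on chromosome 13 (17747552 to 17747572). Sfmbt2 lies on chromosome 2, 10370510 to 10595253, plus strand. Its intron 10 (counted in the coding transcript with 23 exons) holds 71 annotated hairpins of the families over 51.6 kb, from 10466663 to 10518279, and 0 of them touch a coding-transcript exon. They are 5 of miR-297, 23 of miR-466, 14 of miR-467 and 29 of miR-669. Another 10 hairpins with these family names lie outside Sfmbt2. Of the 71 intronic hairpins, 60 contained at least 1 listed sequence: 4 of miR-297, 17 of miR-466, 14 of miR-467 and 25 of miR-669.

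**Figure D1:**
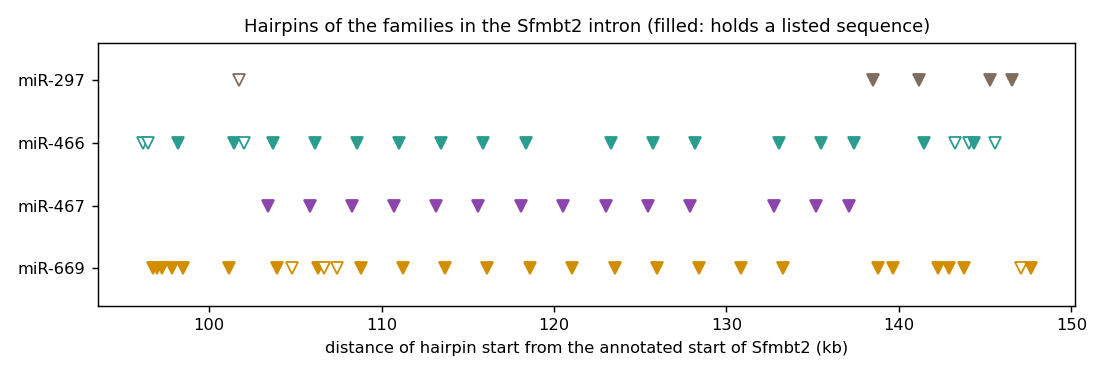
Each triangle is an annotated hairpin of the families inside Sfmbt2, placed by the distance of its start from the annotated start of the gene (kb) and by family. Filled triangles, 60 of 71, contain a sequence listed in the table, and all 14 miR-467 hairpins are filled.

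Most reads cannot be traced to a single hairpin. Exact copies of 13 sequences were found in 1 hairpin and of 12 sequences in 2 or more. miR-669c-5p matched Mir669c alone (10509319 to 10509340), miR-467d-5p matched Mir467d (10507640 to 10507660), and the miR-466f-3p forms matched Mir466f-3 (10472008 to 10472029) and Mir466f-2 (10468730 to 10468751). By contrast, miR-466e-3p stood in 15 hairpins, miR-669a-5p in 15, miR-669a-3p in 13, miR-467b-5p and miR-467d-3p in 12 each, and miR-297a-3p in 4. miR-466q matched chromosome 3 (28419987 to 28420007) and miR-466i-5p matched 17 hairpins, all outside Sfmbt2. The deposited miR-466g sequence, whose entry name records a base change, matched no hairpin.

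Cortex held little of these miRNAs. Their reads made up 0.0113%, 0.0222% and 0.0114% of all miRNA reads in control libraries 1, 2 and 3 and 0.00723%, 0.0141% and 0.0154% in PS-NP libraries 1, 2 and 3. In counts this was 1065.3, 1371 and 737.5 reads in controls and 558.8, 1188.3 and 1525.8 reads with PS-NP, out of 6170654 to 9905746 reads per library. The most abundant member, miR-669c-5p, ranked 339 of the 1013 sequences by mean CPM (edgeR's unit of reads relative to library size, here after TMM scaling). Together miR-669c-5p, miR-467b-5p and miR-669a-3p supplied between 42.1% (control library 1) and 53.8% (PS-NP library 3) of member reads. Of the 25 observations, 16 had at least 10 reads in at least 3 libraries and were tested. The other 9, of which 8 were 5p strands, never exceeded 3.35 CPM, and 3 of them were listed in 1 library only.

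Marker miRNAs of cell types were looked at in the same libraries, and these lists do not mark a brain region. The neuronal markers miR-124-3p, miR-9-5p, miR-128-3p and miR-137-3p summed to 149000 to 206000 CPM in every library. None of the 6 markers of embryonic stem cells and trophoblast (miR-290a-5p to miR-295-3p) was listed. Choroid plexus markers (miR-204-5p and miR-211-5p, 2 of 2 listed) summed to 1771, 5619 and 3260 CPM in control libraries 1, 2 and 3 and to 2056, 7218 and 4278 CPM with PS-NP. Microglia and leukocyte markers (3 of 4 listed) ranged from 18.6 to 25.3 CPM in controls and from 27.9 to 32.5 CPM with PS-NP, and endothelial markers (2 of 2) from 1490 to 1970 and from 1990 to 2530 CPM. Oligodendrocyte markers (3 of 3) spanned 1640 to 1930 CPM in controls and 1540 to 2010 CPM with PS-NP. The part of these cell types in the differences of the families was not tested. In bulk tissue, fewer cells that make a miRNA and less of it per cell cannot be told apart.

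The comparison of PS-NP with control cortex asked which miRNAs differ after long oral exposure and could serve to mark injury of the brain. Most tested members had lower means with PS-NP, but none passed the test. Of the 16 tested, 12 had a log2 difference (PS-NP minus control) below 0 and 4 above 0, against 52.1% below 0 among all 639 sequences tested. The median was −0.49 over the 16, and −0.02 over all 639. Not 1 of the 16 passed an adjusted threshold of 0.05 (edgeR quasi-likelihood fit, Benjamini-Hochberg adjusted over all 639, smallest adjusted p 0.906), where the background share was 0%. At an unadjusted p under 0.05 there was 1 member, lower with PS-NP, against a background of 2.35% in either direction and 0.939% in that direction (1.41% in the other). DESeq2, limma-voom and limma on the authors' norm values likewise called 0 after adjustment and had 1 member each at an unadjusted p under 0.05. The median depended on single libraries of both groups. It was −0.07 without control library 2, with 9 of 15 members below 0, and −0.25 without PS-NP library 1, with 12 of 16 below 0.

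**Figure D2:**
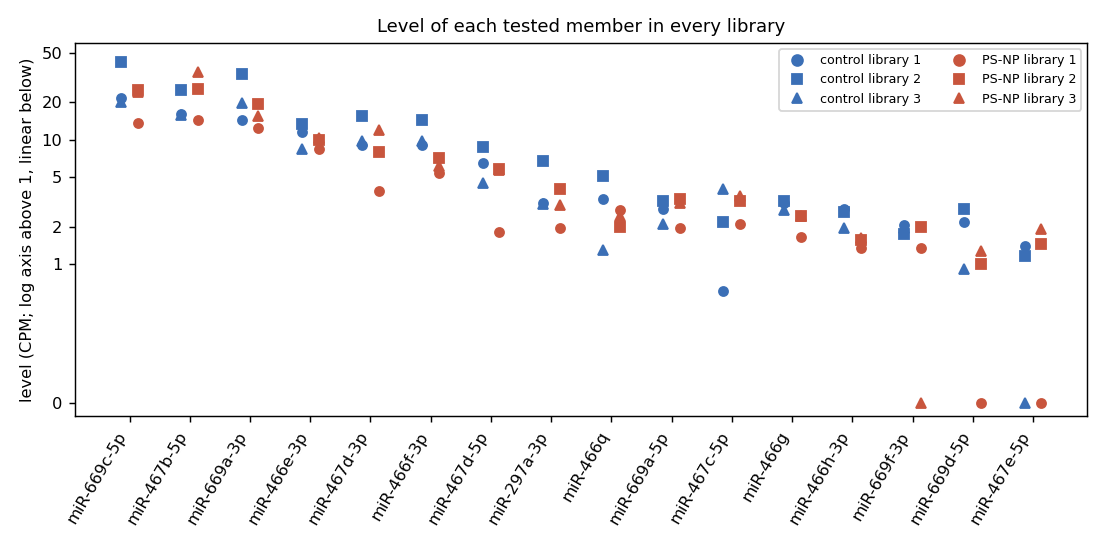
Level in CPM (log axis above 1, linear below) of the 16 tested members, from most to least abundant, with 1 point per library coloured by group. Control library 2 is the highest point for 10 of the 16 and PS-NP library 1 the lowest for 11.

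Among the miR-669 members, the most abundant was miR-669c-5p. It measured 21.6, 42.0 and 20 CPM in control libraries 1, 2 and 3 and 13.5, 24.9 and 24.3 CPM with PS-NP. Control library 2 stood far above the rest, PS-NP library 1 was lowest, and the groups overlapped. The log2 difference was −0.41 (SE 0.36, 95% interval −1.23 to 0.41), and 0.01 without control library 2. miR-669a-3p measured 14.3, 33.8 and 19.8 CPM in controls and 12.5, 19.1 and 15.4 CPM with PS-NP, again with control library 2 highest and PS-NP library 1 lowest. Its log2 difference was −0.53 (SE 0.34), and −0.13 without control library 2. The opposite strand, miR-669a-5p, known with its relatives to restrain muscle differentiation in mouse heart progenitor cells, measured 2.78, 3.22 and 2.10 CPM in controls and 1.95, 3.34 and 3.08 CPM with PS-NP. These ranges overlapped, and the log2 difference of miR-669a-5p was 0.06 (SE 0.43). miR-669d-5p had the lowest estimate of the 16 members, −1.30 (SE 0.87), at 2.2, 2.78 and 0.97 CPM in controls and 0, 1.0 and 1.27 CPM with PS-NP. It was listed at 0 in PS-NP library 1, and was −0.80 without that library. miR-669f-3p, at −0.82 (SE 0.95), was listed at 0 in PS-NP library 3.

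The miR-466 members tested all had a log2 difference below 0, 5 of 5, with a median of −0.46. The member at an unadjusted p under 0.05 was miR-466f-3p, chosen by the rule for lowest p. It measured 9.14, 14.3 and 9.68 CPM in controls and 5.40, 7.12 and 6.16 CPM with PS-NP for each form of the pair. All 3 PS-NP libraries lay below all 3 controls, which was also so for 4.54% of all sequences tested. The log2 difference of miR-466f-3p was −0.82 (SE 0.30, 95% interval −1.50 to −0.14), with an unadjusted edgeR p of 0.0229 that did not pass adjustment (0.906). That unadjusted p was 0.101 without control library 2, 0.0564 once PS-NP library 1 was left out and 0.0524 once PS-NP library 3 was. miR-466h-3p, with levels of 2.78, 2.63 and 1.94 CPM in controls and 1.35, 1.56 and 1.63 CPM with PS-NP, had a log2 difference of −0.69 (SE 0.47). miR-466g was at −0.46 (SE 0.42). These were the other members whose groups did not overlap, which made 3 of 16 below and 0 of 16 above, against 4.54% and 5.01% of all sequences. With 16 members of shared sequence and few reads, no test of that share was made.

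The most abundant miR-466 strand, miR-466e-3p, showed no such gap. It measured 11.6, 13.5 and 8.39 CPM in controls and 8.40, 10 and 10.2 CPM with PS-NP, for a log2 difference of −0.22 (SE 0.28). For miR-466e-3p this was −0.07 without control library 2, −0.14 without PS-NP library 1 and −0.39 without control library 3. miR-466q, encoded on chromosome 3, was at 3.35, 5.12 and 1.29 CPM in controls and 2.70, 2.00 and 2.44 CPM with PS-NP. Its log2 difference of −0.46 (SE 0.53) was 0.01 without control library 2. The 5p strand miR-466i-5p was too sparse to test, with 29, 6 and 0 reads in controls and 22, 9 and 5 reads with PS-NP. miR-466h-5p, linked to cell death in glucose-starved mouse cells, was listed in control library 2 only, at 5 reads.

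The miR-467 members had log2 differences on both sides of 0, each with a 95% interval that included 0. miR-467b-5p, which in mouse macrophages represses the lipid enzyme lipoprotein lipase, measured 16.0, 25.0 and 15.8 CPM in controls and 14.3, 25.6 and 34.7 CPM with PS-NP. Its groups overlapped, and the log2 difference was 0.40 (SE 0.35), falling to 0.05 without PS-NP library 3. miR-467d-5p, whose seed differs, measured 6.48, 8.77 and 4.52 CPM in controls and 1.80, 5.79 and 5.70 CPM with PS-NP, for a log2 difference of −0.56 (SE 0.47). That of miR-467d-5p was −0.20 without PS-NP library 1 and −0.30 without control library 2. The 3p strand miR-467d-3p measured 9.14, 15.4 and 9.84 CPM in controls and 3.90, 8.01 and 12.0 CPM with PS-NP, for a log2 difference of −0.51 (SE 0.42). PS-NP libraries 1 and 2 lay below all controls for miR-467d-3p and PS-NP library 3 lay within them. Its difference was −0.19 without PS-NP library 1, −0.24 without control library 2 and −0.95 without PS-NP library 3. miR-467c-5p and miR-467e-5p had log2 differences of 0.37 (SE 0.59) and 0.40 (SE 1.14). Control library 3 and PS-NP library 1 were listed at 0 for miR-467e-5p. The miR-297 family had 1 member, miR-297a-3p, at 3.12, 6.73 and 3.06 CPM in controls and 1.95, 4.01 and 2.99 CPM with PS-NP, for a log2 difference of −0.52 (SE 0.47) that was −0.05 without control library 2.

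**Figure D3:**
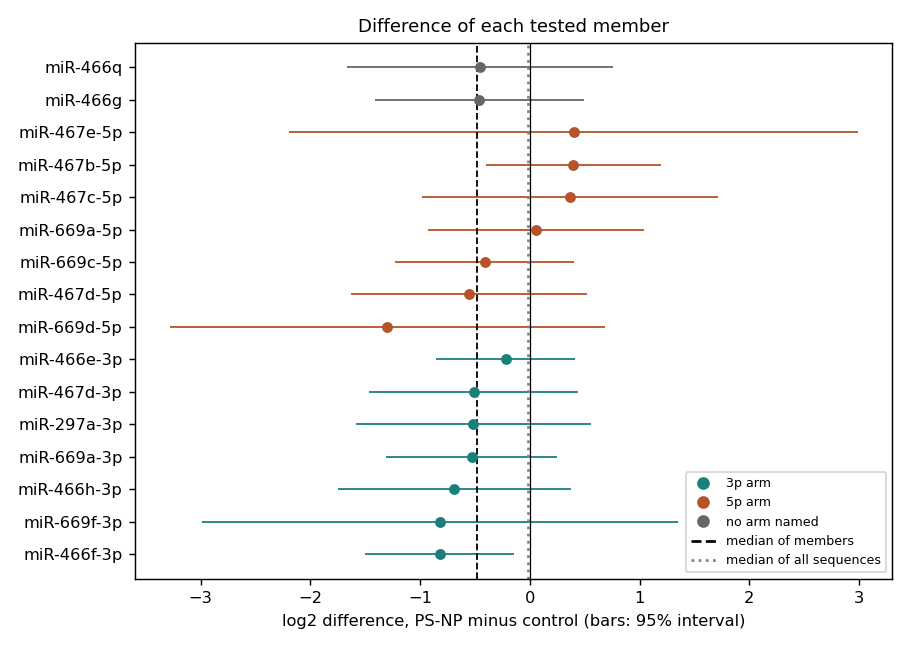
Log2 difference (PS-NP minus control) of the 16 tested members with its 95% interval from the edgeR fit, coloured by strand. All 7 members from the 3p strand lie below 0, while the 7 from the 5p strand lie on both sides, and the interval of miR-466f-3p alone leaves out 0.

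By strand, 7 of 7 tested 3p members had a log2 difference below 0 (median −0.53), and 3 of 7 tested 5p members (median 0.06). All 7 of the 3p members lay above their own mean in control library 2, and without it their median was −0.24, still with 7 of 7 below 0. As each library was left out, the median of the 5p members ran from −0.34 to 0.26, on either side of 0. The difference between strands was not tested. Outside the families the medians of mouse 3p and 5p sequences were −0.05 (258 sequences) and 0.06 (224). The 3p members had a median GC content of 36.4% and the 5p members of 40.9%, against 50% for all sequences tested. Across all 639, sequences poorer in GC had higher log2 differences (rank correlation, Spearman's rho −0.467, over sequences that share libraries and are not independent). Members had a low GC content, and with the GC trend of each library removed their median was −0.57.

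The arms of the same hairpins were then set against each other within each library, a comparison that does not depend on scaling and was added after the values were seen. The deposited miR-467b-5p and miR-467d-3p sequences stand on opposite arms of 11 shared hairpins in the intron. The reads of miR-467b-5p were 138, 171 and 98 in controls and 95, 230 and 382.8 with PS-NP, and those of miR-467d-3p were 79, 105 and 61 and then 26, 72 and 132. The ratio of 5p to 3p reads was 1.75, 1.63 and 1.61 in control libraries and 3.65, 3.19 and 2.9 with PS-NP. Controls lay close together at 1.66 ± 0.0754 and every PS-NP library lay above them, at 3.25 ± 0.380 (SD, n = 3 each). The difference in mean log2 ratio was 0.96, and 0.88 to 1.04 as each library was left out. Among 144 other mouse hairpins with both arms tested, the PS-NP ratios lay wholly above the controls in 9.03% and wholly below in 2.08%. In 6.25% of the 144 the log2 ratio differed by at least as much, and in 2.08% it did so with groups that did not overlap. The pair was singled out for its difference, so no test was made.

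In the other arm pairs of the families the groups overlapped. miR-669a-5p and miR-669a-3p share 12 hairpins, among them Mir669a-1 (chromosome 2, 10476853 to 10476949, plus strand), shown to place both strands, in capitals, on 1 hairpin.
Mir669a-1: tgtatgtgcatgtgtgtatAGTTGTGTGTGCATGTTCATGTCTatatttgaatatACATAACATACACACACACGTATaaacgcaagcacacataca
The ratio for miR-669a was 0.194, 0.0952 and 0.106 in controls and 0.157, 0.174 and 0.200 with PS-NP, so control library 1 lay within the PS-NP range. Its difference in mean log2 ratio was 0.50, also above 0, and 0.30 to 0.81 as each library was left out. miR-467d-5p shares 1 hairpin with miR-467d-3p, and their ratio was 0.709, 0.571 and 0.459 in controls and 0.462, 0.722 and 0.477 with PS-NP, with groups that overlapped throughout. The difference in mean log2 ratio for this pair was −0.07. Over the whole miR-467 family the 5p share of reads was 72.9%, 70.8% and 71.2% in controls and 82.3%, 81.8% and 79.3% with PS-NP. This share did not overlap between groups, and it contains the miR-467b-5p reads described above. No background was taken for the 5p shares of whole families. In the miR-669 family it was 62.3%, 57.9% and 53.4% in controls and 54.2%, 59.2% and 66.7% with PS-NP, and these ranges overlapped. The miR-466 family was mostly 3p, with a 5p share of 3.1% to 9.3% in controls and 5.2% to 17.2% with PS-NP.

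**Figure D4:**
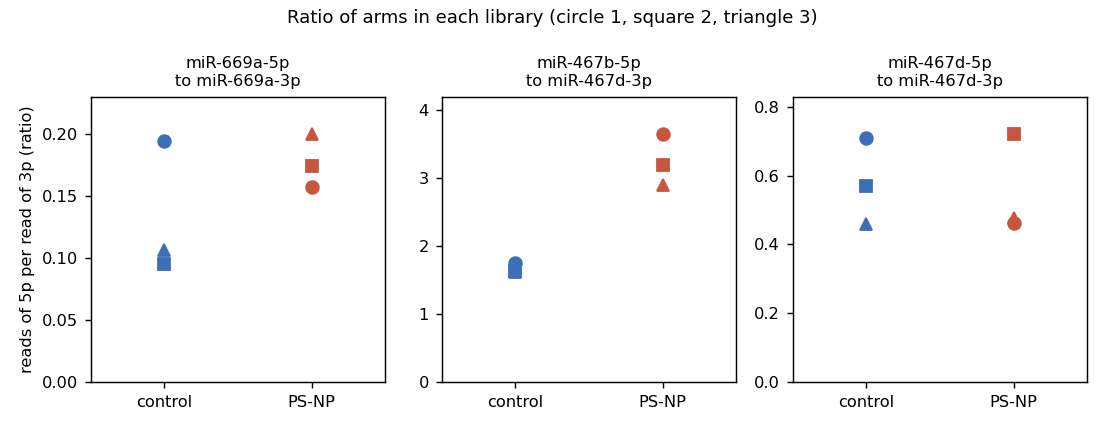
Reads of the 5p strand per read of the 3p strand (linear axes from 0) in each library for the 3 member pairs that share hairpins and were both tested. The PS-NP points of miR-467b-5p to miR-467d-3p, 2.9 to 3.65, all lie above the controls at 1.61 to 1.75, and the other pairs overlap.

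Within the controls, the summed level of the families ranged more widely than the group means differed. It was 123, 200.5 and 119 CPM in control libraries 1, 2 and 3 and 83.8, 132 and 138 CPM with PS-NP, giving means of 148 ± 45.9 and 118 ± 29.8 (SD, n = 3 each). The family sums were 44.8 ± 11.1 and 31.0 ± 1.32 CPM for miR-466, 58.2 ± 22.7 and 42.8 ± 11.3 for miR-669, 40.2 ± 10.7 and 41.3 ± 18 for miR-467 and 4.30 ± 2.10 and 2.98 ± 1.03 for miR-297. The miR-466 sum was 42.7, 56.9 and 34.9 CPM in controls and 29.7, 32.3 and 31.1 CPM with PS-NP, so these groups did not overlap. However, this sum counts both forms of miR-466f-3p, the member of lowest p, whose groups did not overlap either. No background share was taken for such sums. Log2 differences of the sums were smaller without control library 2, moving from −0.53 to −0.32 for miR-466, from −0.45 to −0.08 for miR-669 and from −0.53 to −0.05 for miR-297. That of miR-467, 0.04, was below 0 in 4 of 6 cases when a library was left out (−0.28 to 0.34). The log2 difference of the whole sum was −0.32, and it was −0.04 without control library 2 and −0.13 without PS-NP library 1.

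Members tended to be high or low in the same libraries. Control library 2 gave the highest of the 6 values for 10 of 16 members, against 23.3% of all sequences tested, and PS-NP library 1 the lowest for 11 of 16, against 20.2%. The median departure of members from their own mean was 0.81 log2 units in control library 2 and −0.57 in PS-NP library 1, where all sequences had medians of 0.05 and 0.01. Choroid plexus markers had their highest sum in PS-NP library 2 (7218 CPM) and their lowest in control library 1 (1771 CPM). The median departures of members in these libraries were 0.14 and 0.17. Within each group the choroid plexus markers and the members shared extremes. Both were highest among controls in library 2 (markers 5619 CPM) and lowest among PS-NP libraries in library 1 (markers 2056 CPM). This was not particular to choroid plexus. Microglia and leukocyte markers did the same, at 18.6, 25.3 and 20.2 CPM in controls and 27.9, 32.4 and 32.5 CPM with PS-NP. The other marker lists with reads did not share both extremes. A link between markers and members was not tested. In PS-NP library 1 the 7 members of the 5p strand all lay below their own mean, with a median of −0.77 (3p members −0.54). In PS-NP libraries 2 and 3 all 7 lay above it, with medians of 0.30 and 0.48. The 3p members had medians of −0.03 and −0.24 there.

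**Figure D5:**
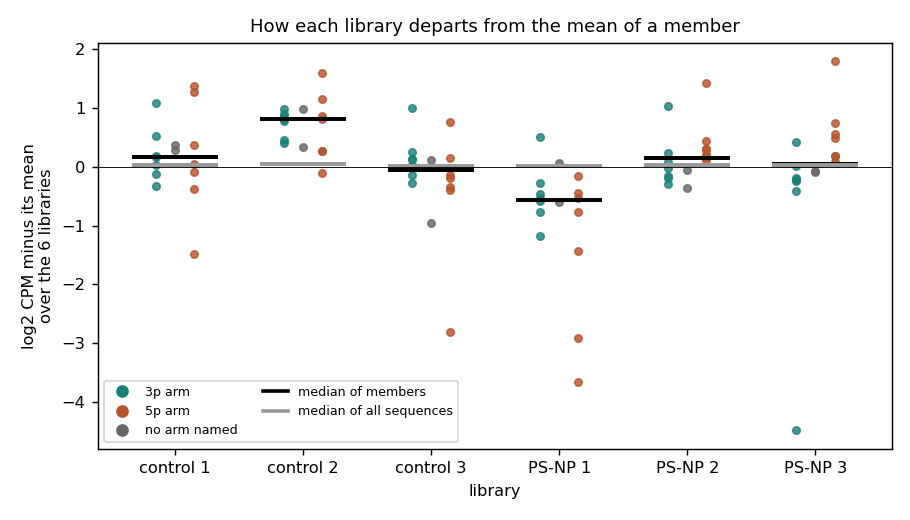
Log2 CPM of each tested member minus its mean over the 6 libraries, by library and strand, with the median of the 16 members in black and of all 639 sequences in grey. The member medians of 0.81 in control library 2 and −0.57 in PS-NP library 1 stand apart from the medians of all sequences, which lie near 0.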

How the data were processed

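Total RNA of prefrontal cortex was taken up in Trizol and sequenced with the TruSeq Small RNA kit, and the ACGT101-miR program removed adapter dimers, low complexity reads, other RNA families and repeats, per the labels' protocols. Many members resemble simple repeats, but what the filter removed from them, the genome build, the miRBase release and the mapping settings are, in the sources used here, not given. More libraries are mentioned in the protocols than the 6 analysed here. The deposited raw values are estimated counts, divided where entries share a sequence. The deposited norm values are a signal in which the authors multiplied raw values by 1 factor for each library (0.714 to 1.27, from the values), used for an alternative only. Another 3 lines were not analysed here. Of 26 member sequences, 19 had whole sums (within 1e-06) in every library. For sequences on a single entry, 18 of 3981 whole values above 0 were under 5, so a listed 0 may hide a few reads and gives no upper limit.

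Entries were summed by sequence, rounded and tested where at least 3 of 6 libraries had at least 10 reads (639 sequences, at least 99.98% of reads). Libraries held 6170654 to 9905746 reads. TMM factors were 0.863 to 1.115. The test was that of edgeR 4.0.16 (quasi-likelihood, common coefficient of variation 30.6%, R 4.3.3), with limma 3.58.1 and DESeq2 1.42.0 as alternatives. The median 95% interval reached 1.02 log2 units to either side for tested members and 0.64 for all sequences, unadjusted. Sequences were matched exactly to GENCODE hairpins (GRCm38). RefSeq (GRCm38.p6) held mature forms of 2 members, miR-466i-3p and miR-466q, neither identical to the deposited form. Named were the 10 most abundant members, the 4 of lowest p and the most abundant 5p and 3p strand of each family; miR-466g, miR-669f-3p, miR-467c-5p, miR-467e-5p, miR-466i-3p, miR-669l-5p and miR-466h-5p were named after their values were seen. Members and lists were chosen with earlier results of these data known.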

Additional observations from a re-analysis of the deposited data

How the results depend on the processing

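No member passed the adjusted threshold under any of the 19 alternatives run: other scalings, tests, filters, ways of merging entries, removal of the GC trend, the replicate block, each library left out, and, chosen after seeing the data, predicted arms counted as members. At an unadjusted p under 0.05 there was 1 member, and there were 0 with a mean of at least 100 reads (3 members tested), 2 with the replicate block and the GC trend removed, and 0 to 1 as each library was left out (0 when control library 2, PS-NP library 1 or PS-NP library 3 was left out). The median log2 difference of members, −0.49, ran from −0.61 to −0.067 (without control library 2) as libraries were left out and lay between −0.57 and −0.41 under the other settings. Of 201 values of 12 named members under the alternatives, 194 kept their direction and their side of the adjusted threshold, which no member passed. The 7 that turned were miR-669c-5p (0.0064, range −0.60 to 0.0064 as each library was left out) and miR-466q (0.0070, range −0.83 to 0.0070) without control library 2, and 5 values of miR-669a-5p. These were −0.056 with the GC trend removed and −0.051 with the replicate block as well, −0.093 without control library 3, and −0.105 and −0.040 when PS-NP library 2 or 3 was left out (range −0.105 to 0.24); the cause was not tested. The summed miR-467 level, at a log2 difference of 0.04, lay below 0 without control library 1 (−0.070), control library 3 (−0.063), PS-NP library 2 (−0.0089) or PS-NP library 3 (−0.28). Strand medians with a library left out, added after seeing the data, ran from −0.72 to −0.24 for 3p and from −0.34 to 0.26 for 5p members.

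The numbers 1 to 3 are shared between groups in the labels. Deviations of same-numbered libraries from their group means correlated at 0.192, 0.146 and −0.175 (Pearson's r across sequences). Control library 2 correlated best with PS-NP library 3 (0.343). Deviations within a group cancel out, which ties these correlations to each other. They therefore cannot tell whether same-numbered libraries were paired. With the replicate block 1 member had an unadjusted p under 0.05, and the median of all 16 tested was −0.47. Over all sequences that count was 15, and 32 with the block, 29 with no filter and 9 at a mean of at least 100 reads. It was 13 of 639 with the replicate block and the GC trend removed, and 6 to 38 with a library left out. Depth limits the members: the median mean level of those tested was 3.23 CPM, against 32.1 CPM over all sequences tested.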

Other observations

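A predicted 3p arm of the miR-466d hairpin, whose entry name fell outside the rule for members, was more abundant than most of them. It measured 17.1, 19.7 and 11.9 CPM in control libraries 1, 2 and 3 and 9.15, 13.1 and 12.0 CPM with PS-NP, for a log2 difference of −0.51 (SE 0.28, unadjusted edgeR p 0.108). The groups overlapped, with PS-NP library 2 above control library 3.

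Outside the families, 7 listed sequences held GTGTGTG or ACACACA, the runs found in 17 of the 26 member sequences (either motif in the deposited strand), and 5 of them were tested. Of these 5, 4 had a log2 difference below 0 and 0 had an unadjusted p under 0.05 by edgeR (0 adjusted), with a median of −0.22. miR-672-5p measured 35.4, 42.1 and 36.8 CPM in controls and 34.7, 35.1 and 34.2 CPM with PS-NP. miR-574-5p, whose strand is largely a GU run, measured 30.3, 31.6 and 19.5 CPM in controls and 28.2, 22.7 and 18.9 CPM with PS-NP, for a log2 difference of −0.22 (SE 0.27).

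The 71 hairpins of the families are not the only ones annotated in intron 10 of Sfmbt2. GENCODE lists another 48 miRNA hairpins inside the gene under provisional gene names, and 4 of them contained a listed member sequence.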
